A study of Mus musculus with 24 samples.

Results

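A set of 10 genes on the route from glucose to lactate was followed in sorted cells of the mouse gut: the glucose transporter *Slc2a1*, the hexokinases *Hk1* and *Hk2*, the phosphofructokinases *Pfkl* and *Pfkp*, the pyruvate kinases *Pklr* and *Pkm*, the lactate dehydrogenase subunit *Ldha* and the monocarboxylate transporters *Slc16a1* and *Slc16a3*. They were chosen by name as these 10 of the 53465 genes in the deposited count table, and all 10 passed the filter on low counts that left 15044 genes for testing. All 24 libraries came from Guca2a-Venus mice, which carry a bacterial artificial chromosome in which the yellow fluorescent protein Venus replaces the coding sequence of the guanylin gene *Guca2a*, so that the guanylin promoter drives Venus. The line goes back to 1 founder, and the mice ate standard chow on a light and dark cycle; their age is not given in the sources used here. Epithelium from the top, the middle and the bottom of the small intestine (duodenum, jejunum and ileum) and from the whole colon with rectum was digested to single cells and sorted into Venus-positive and Venus-negative cells, after dead cells, debris without nuclei and CD45-positive immune cells were gated out. Each of the 8 groups held 3 libraries, described as 3 different mice, and no label names the mouse behind a library. The study describes both populations as sorted from each tissue of 3 mice, so regions and populations likely share mice. Every test here nevertheless treats the libraries as independent. Venus-negative cells came from mice with the same transgene and are the control for fluorescence only.

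The libraries held 7458616 to 23063124 reads assigned to genes, with a median of 15379489.5, so that 3 counts correspond to 0.13 to 0.402 CPM (reads of a gene relative to all gene reads of its library). *Guca2a* itself was at 216 to 392 CPM in Venus-positive and 2.66 to 6.74 in Venus-negative duodenum, and its Venus-positive libraries were above the Venus-negative ones in all 4 regions. Reads from the mitochondrial genome took a median of 36.7% of gene counts in Venus-positive and 72.4% in Venus-negative duodenum, 50.05% and 76.9% in jejunum, 53.5% and 65.6% in ileum, and 72.7% and 72.1% in colon. CPM values below are scaled by the trimmed mean of M-values (TMM), and differences are log2 fold changes of Venus-positive over Venus-negative cells ± SE from edgeR's quasi-likelihood test in 1 model of all 24 libraries. Adjusted p-values are Benjamini-Hochberg values over the 15044 genes, and a gene is called higher or lower where its adjusted p is under 0.05.

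Glycolysis splits glucose into pyruvate in the cytosol. Glucose enters through facilitative transporters, of which *Slc2a1* encodes GLUT1, and hexokinases trap it as glucose phosphate. Phosphofructokinase makes the committed step, pyruvate kinase the last, and lactate dehydrogenase A favours turning pyruvate into lactate, which leaves or enters cells with a proton through the monocarboxylate transporters MCT1 (*Slc16a1*) and MCT4 (*Slc16a3*). The isozymes differ in tissue and control: *Pklr* encodes the pyruvate kinase of liver and red cells, which the small intestine also makes, and *Pkm* the muscle and general forms, while *Pfkl* and *Pfkp* encode the liver and platelet forms of phosphofructokinase. Enterocytes of the small intestine take up sugar from the lumen, whereas colonocytes take up short-chain fatty acids such as butyrate, for which MCT1 is a known carrier.

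Promoters of all 10 genes were taken from RefSeq as windows of 300 bases around annotated starts on GRCm38.p6, 14 windows in all, and 3 are printed because the members they belong to carry the main contrasts of the report: *Pklr* rose in Venus-positive cells of all 4 regions, *Slc16a3* was the transporter with large differences in jejunum and ileum, and *Ldha* was called in no region. Capitals mark motif matches found on either strand, and a match describes letters in this window and not a bound site. In the *Pklr* window at chr3:89136373-89136672 (plus strand), which lies at the start of the liver-type transcript, the first run of capitals holds paired motifs, CACGNG and CNCGTG with 5 bases between them, the form of the carbohydrate response element known from this gene, and the second is TATAAA.
Pklr: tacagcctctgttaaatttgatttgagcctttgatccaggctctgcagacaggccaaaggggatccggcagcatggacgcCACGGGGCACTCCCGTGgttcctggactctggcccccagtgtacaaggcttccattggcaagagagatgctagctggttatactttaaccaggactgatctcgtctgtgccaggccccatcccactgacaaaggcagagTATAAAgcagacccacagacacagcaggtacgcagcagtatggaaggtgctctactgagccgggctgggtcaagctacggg
These paired motifs were found in 15 of 32851 RefSeq promoter windows of the same length (0.0457%) and in 1 of the 14 windows of the members, and TATAAA in 8.32% of all windows and in 2 of the 14.
In the *Ldha* window at chr7:46845554-46845853 (plus strand) and the *Slc16a3* window at chr11:120948817-120949116 (plus strand), capitals mark ACGTG or its complement, the core of the element that hypoxia-inducible factors bind.
Ldha: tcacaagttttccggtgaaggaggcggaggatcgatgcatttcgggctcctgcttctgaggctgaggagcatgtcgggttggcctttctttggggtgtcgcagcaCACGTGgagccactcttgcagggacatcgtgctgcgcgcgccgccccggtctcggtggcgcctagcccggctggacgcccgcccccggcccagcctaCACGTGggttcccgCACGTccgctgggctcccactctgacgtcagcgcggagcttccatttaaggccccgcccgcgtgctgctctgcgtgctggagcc
Slc16a3: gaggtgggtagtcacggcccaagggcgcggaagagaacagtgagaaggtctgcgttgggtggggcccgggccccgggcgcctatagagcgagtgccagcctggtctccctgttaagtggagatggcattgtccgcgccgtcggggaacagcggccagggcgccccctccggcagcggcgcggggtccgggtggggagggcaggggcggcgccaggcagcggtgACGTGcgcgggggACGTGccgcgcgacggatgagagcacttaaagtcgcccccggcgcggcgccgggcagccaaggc
The *Ldha* window held ACGTG 5 times over both strands, since each of its 2 palindromic CACGTG motifs counts on either strand, and the *Slc16a3* window held it 2 times. ACGTG occurred in 7 of the 14 windows of the members, in windows of 7 of the 10 genes, and in 19.6% of all 32851 windows, and CACGTG occurred in 2 of the 14 and in 7.15% of all. The 7 genes with ACGTG were *Slc2a1*, *Slc16a1*, *Slc16a3*, *Hk1*, *Hk2*, *Pkm* and *Ldha*, and they did not move as a group, as the values below show.

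Across the 4 regions, 22 of the 40 differences between Venus-positive and Venus-negative cells were called, 19 of them higher in Venus-positive cells. In the duodenum 4 members were higher and 1 lower, where 8.88% of all tested genes were higher and 8.08% lower. In the jejunum 4 were higher and 2 lower (background 18.3% and 25.6%), in the ileum 5 were higher and 0 lower (17.9% and 20.6%), and in the colon 6 were higher and 0 lower (9.31% and 3.8%). The median log2 fold change of the 10 members was 0.86 in duodenum, 0.17 in jejunum, 1.05 in ileum and 0.98 in colon, beside -0.16, -0.28, -0.27 and 0 for all tested genes. Only *Pklr* was called in all 4 regions and only *Ldha* in none, and *Slc2a1*, *Hk1* and *Hk2* were called in the duodenum while *Pkm* and *Pfkp* were not. In bulk RNA, fewer cells of a type and less RNA per cell cannot be told apart, and this holds for every difference given here.

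**Figure D1:**
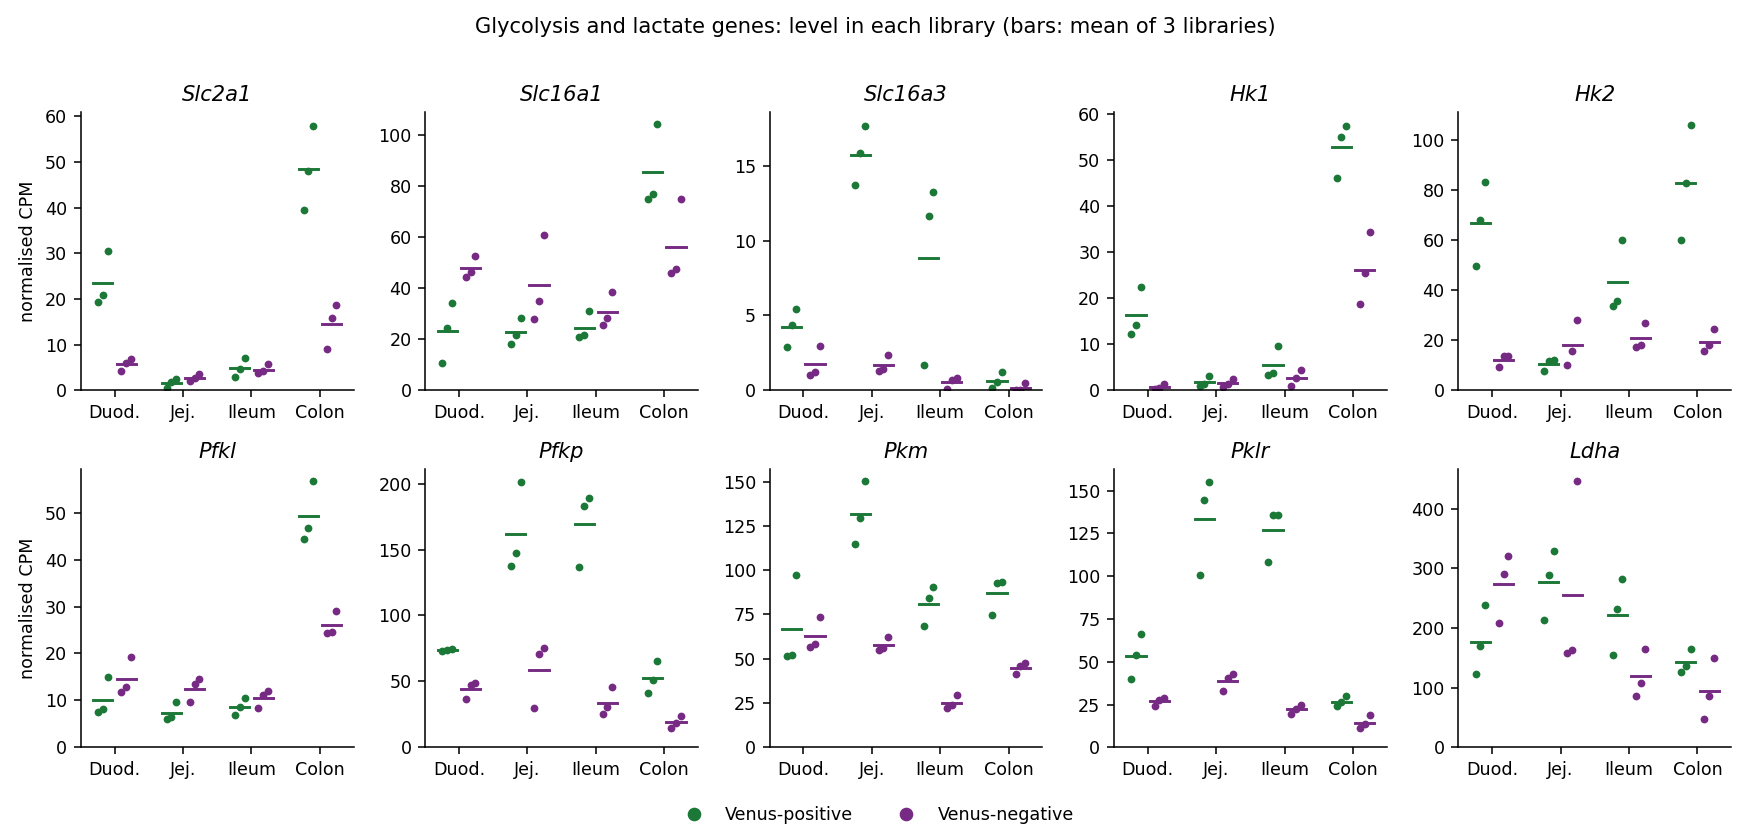
Level of each of the 10 genes in every library, as TMM-normalised CPM on a linear axis from 0 that differs between panels, by region; green points are Venus-positive and purple points Venus-negative libraries, and bars are the mean of 3 libraries. *Pklr* was above in Venus-positive libraries of every region, while *Hk1* stood at 12.3, 14.2 and 22.4 CPM in Venus-positive and 0.259, 0.561 and 1.297 in Venus-negative duodenum and at similar low levels in both jejunal populations.

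The members *Slc2a1*, *Hk1* and *Hk2* were called higher in Venus-positive cells of the duodenum. *Slc2a1* and *Hk2* were also called higher in the colon, and *Hk2* in the ileum. *Slc2a1* (ENSMUSG00000028645, chromosome 4, 119108711 to 119137983), which encodes GLUT1, was at 19.3, 20.9 and 30.6 CPM in the Venus-positive duodenal libraries and 4.14, 6.05 and 6.93 in the Venus-negative ones. In the colon it was at 39.5, 48.1 and 58.01 CPM in Venus-positive and 9.002, 15.9 and 18.7 in Venus-negative libraries. The Venus-positive libraries were all above the Venus-negative ones in these 2 regions, by 4.13-fold in duodenum (2.05 ± 0.39, adjusted p = 0.000467) and 3.34-fold in colon (1.74 ± 0.38, adjusted p = 0.00223, edgeR). In the jejunum the gene was low, at 0.575, 1.84 and 2.405 CPM against 2.06, 2.65 and 3.63, from 9 to 60 counts a library, and in the ileum at 2.82, 4.704 and 6.99 against 3.71, 4.205 and 5.67. The populations overlapped in both, with log2 fold changes of -0.80 ± 0.42 (adjusted p = 0.125) and 0.09 ± 0.38 (adjusted p = 0.87, edgeR). Without positive library 3 of the jejunum, the jejunal difference became -1.19 (adjusted p = 0.0445), and without positive library 1 it was -0.40 (adjusted p = 0.491, edgeR).

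*Hk1* (ENSMUSG00000037012, chromosome 10, 62268855 to 62379908, minus strand) encodes the hexokinase that most tissues make. Its largest difference was in the duodenum: 12.3, 14.2 and 22.4 CPM in Venus-positive duodenum against 0.259, 0.561 and 1.297, which were 4, 8 and 18 counts, in Venus-negative duodenum. The libraries did not overlap, and the log2 fold change was 4.53 ± 0.59 (adjusted p = 1.68e-06, edgeR). It was 4.12 without negative library 2 and 5.29 without negative library 3 of the duodenum. In the jejunum, at 0.874, 1.34 and 3.01 against 0.725, 1.44 and 2.38 CPM, the gene was near its lowest levels in both populations (log2 fold change 0.23 ± 0.54, adjusted p = 0.767, edgeR). In the ileum it was at 3.36, 3.67 and 9.68 CPM in Venus-positive and 0.997, 2.68 and 4.33 in Venus-negative libraries, with overlap (1.05 ± 0.49, adjusted p = 0.0918, edgeR). The colon had the most *Hk1*, with 45.99, 54.9 and 57.4 CPM in Venus-positive and 18.6, 25.3 and 34.4 in Venus-negative libraries; these did not overlap, although the difference missed the threshold (1.02 ± 0.47, adjusted p = 0.156, edgeR). A fit of the colon alone put it at 0.90 (adjusted p = 0.0465, edgeR), and the ileal difference passed at 1.11 (adjusted p = 0.02) without the filter on low counts and at 1.58 (adjusted p = 0.0298) without negative library 2 of the ileum, while it was 0.37 (adjusted p = 0.607) without positive library 1, the highest ileal library.

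*Hk2* (ENSMUSG00000000628, chromosome 6, 82725025 to 82774454, minus strand) encodes the hexokinase that insulin and hypoxia are known to induce. Its Venus-positive libraries held 49.8, 67.95 and 83.1 CPM in the duodenum and its Venus-negative ones 9.33, 13.5 and 13.8, a 5.48-fold difference without overlap (log2 fold change 2.45 ± 0.35, adjusted p = 6.91e-06, edgeR). The colon gave 60.1, 82.9 and 106 CPM against 15.9, 18.0 and 24.5, again without overlap (2.09 ± 0.34, adjusted p = 9.63e-05, edgeR). *Hk2* had its highest means in Venus-positive cells of the duodenum and colon, whose libraries overlapped each other and the highest library of Venus-positive ileum. In the ileum, 33.6, 35.7 and 60.3 CPM stood above 17.3, 17.9 and 26.9 (1.06 ± 0.33, adjusted p = 0.0117, edgeR). The jejunum went the other way in its means, 7.87, 11.5 and 12.1 against 10.2, 15.7 and 28.03 CPM, with overlap and no call (-0.77 ± 0.33, adjusted p = 0.0605, edgeR). The ileal call was lost without positive library 2 (0.74, adjusted p = 0.117) and narrowly without negative library 1 or 3 of the ileum (0.94 and 0.96), and the jejunal difference passed among genes with 10 counts in every library (-0.90, adjusted p = 0.0258) and without negative library 3 of the jejunum (-1.06, adjusted p = 0.0146), but was -0.30 (adjusted p = 0.518) without negative library 2 of the jejunum and -0.39 with library size alone (edgeR).

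The phosphofructokinase genes went opposite ways in the jejunum and were both higher in Venus-positive colon. *Pfkp* (ENSMUSG00000021196, chromosome 13, 6579768 to 6648777, minus strand), the platelet form, was at 137, 147 and 201 CPM in Venus-positive jejunum and 30.2, 70.9 and 75.3 in Venus-negative jejunum. In the ileum it was at 137, 183 and 189 CPM in Venus-positive and 25.5, 30.6 and 45.8 in Venus-negative libraries. In the colon it was at 41.5, 50.9 and 65.5 against 14.8, 18.3 and 24.04 CPM. No Venus-negative library reached a Venus-positive library of its region, and *Pfkp* was called higher in the jejunum (1.46 ± 0.31, adjusted p = 0.000294), the ileum (2.32 ± 0.32, adjusted p = 1.56e-06) and the colon (1.47 ± 0.31, adjusted p = 0.00172, edgeR). The duodenal libraries held 72.7, 73.9 and 74.7 CPM above 36.9, 47.1 and 48.8, and the difference missed the threshold (0.74 ± 0.30, adjusted p = 0.0931, edgeR). It passed there with the duodenum fitted alone (0.80, adjusted p = 0.0149), with library size as the only scaling (1.19, adjusted p = 0.0203) and without negative library 1 of the jejunum (0.80, adjusted p = 0.0455, edgeR). Exons of *Pfkp* and of *Pitrm1* on the opposite strand share 748 bases, 5.58% of the exon length of *Pfkp*, and *Pitrm1* had 0 to 447 counts a library.

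*Pfkl* (ENSMUSG00000020277, chromosome 10, 77986947 to 78010083, minus strand), the liver form, was highest in the colon. Its colonic libraries held 44.3, 46.7 and 56.7 CPM in Venus-positive and 24.4, 24.5 and 28.98 in Venus-negative cells, without overlap (log2 fold change 0.92 ± 0.29, adjusted p = 0.0348, edgeR). All 18 libraries of the small intestine were below every colonic library, with 7.47, 8.12 and 14.95 against 11.7, 12.8 and 19.3 CPM in duodenum. In the jejunum 5.98, 6.51 and 9.64 CPM stood against 9.63, 13.4 and 14.5, with overlap at the edge and a lower level in Venus-positive cells (-0.76 ± 0.30, adjusted p = 0.041, edgeR), and in the ileum 6.78, 8.65 and 10.6 against 8.36, 11.2 and 12.02 (-0.28 ± 0.30, adjusted p = 0.475). The ileal difference ran from -0.46 without positive library 3 to -0.14 without positive library 1 of the ileum. The duodenal difference was -0.53 ± 0.30 (adjusted p = 0.237, edgeR). It ran from -0.91 without positive library 3 to -0.28 without negative library 3 of the duodenum and was -0.09 with library size alone. The jejunal call did not hold in 5 of the 8 alternative analyses of all libraries, nor without any of positive libraries 1 and 3 or negative libraries 2 and 3 of the jejunum, positive libraries 1 and 2 or negative library 2 of the colon (-0.92 to -0.63 over all omissions). The colonic call did not hold in 4 of the 8, nor without any of positive libraries 1 and 2 or negative libraries 1, 2 and 3 of the colon (0.82 to 1.0).

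The pyruvate kinases were higher in Venus-positive cells, *Pklr* in all 4 regions and *Pkm* in 3. *Pklr* (ENSMUSG00000041237, chromosome 3, 89136142 to 89146784), which encodes the liver and red cell form, was at 101, 145 and 155 CPM in Venus-positive and 32.99, 40.4 and 42.9 in Venus-negative jejunum. Ileal libraries held 108, 136 and 136 CPM against 19.7, 22.5 and 24.9, and duodenal ones 39.8, 53.9 and 66.4 against 24.3, 27.7 and 28.5. In the colon, 23.9, 26.2 and 29.99 CPM stood against 11.1, 13.5 and 18.7. Venus-positive libraries were above Venus-negative ones in each region, by 5.66-fold in ileum (2.5 ± 0.27, adjusted p = 5.49e-08), 3.44-fold in jejunum (1.78 ± 0.26, adjusted p = 2.97e-06), 1.99-fold in duodenum (0.99 ± 0.26, adjusted p = 0.00786) and 1.86-fold in colon (0.89 ± 0.26, adjusted p = 0.0202, edgeR). The duodenal call was lost without positive library 3 of the duodenum (0.80, adjusted p = 0.0533), and the colonic call without positive library 2 (0.76), negative library 2 (0.68) or negative library 3 (0.86) of the colon. The colonic call was also lost with library size alone, without the low-count filter and in a fit of the colon alone (0.77 to 0.89, adjusted p from 0.0837 to 0.109, edgeR). Its exons overlap those of *Hcn3* on the opposite strand over 22.0% of the exon length of *Pklr*, and *Hcn3* had 0 to 16 counts a library.

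*Pkm* (ENSMUSG00000032294, chromosome 9, 59656368 to 59679375) yields the muscle and the general pyruvate kinase by splicing, which gene counts do not separate. Its exons overlap those of *Gm49759*, on the same strand, over 15.3% of their length, and *Gm49759* had 12 to 175 counts a library. It was at 115, 129.6 and 150.5 CPM in Venus-positive and 54.7, 56.2 and 62.02 in Venus-negative jejunum, at 68.5, 84.2 and 90.6 and 21.9, 23.7 and 29.7 in ileum, and at 74.9, 92.6 and 93.2 and 41.2, 45.9 and 47.8 in colon. These did not overlap, and *Pkm* was called higher in jejunum (1.19 ± 0.26, adjusted p = 0.000402), ileum (1.69 ± 0.26, adjusted p = 8.7e-06) and colon (0.95 ± 0.26, adjusted p = 0.0123, edgeR). The Venus-positive libraries of the duodenum, at 51.4, 51.9 and 97.4 CPM, overlapped the Venus-negative ones at 56.5, 58.5 and 73.8 (0.09 ± 0.25, adjusted p = 0.855, edgeR). Without positive library 3, the highest there, the duodenal difference was -0.29 (adjusted p = 0.49). The colonic call was lost without positive library 1 (0.91), positive library 2 (0.85) or negative library 2 (0.83) of the colon, and with library size alone (0.85, adjusted p = 0.0972, edgeR).

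*Ldha* (ENSMUSG00000063229, chromosome 7, 46841475 to 46855627) had the highest level per kilobase of exons of the 10 members in each of the 8 groups, from 28.3 CPM per kilobase in Venus-negative colon to 83.8 in Venus-positive jejunum. It was called in no region. Venus-positive and Venus-negative duodenum held 123, 169 and 238 and 208, 291 and 320.4 CPM (-0.63 ± 0.39, adjusted p = 0.282, edgeR). In the jejunum 213, 289 and 329.9 CPM stood against 159, 163 and 446, where 1 Venus-negative library stood above every Venus-positive one (0.12 ± 0.39, adjusted p = 0.836). Ileal libraries were at 155, 232 and 281 against 85.9, 108 and 165 CPM (0.89 ± 0.39, adjusted p = 0.0708) and colonic ones at 127, 136 and 165 against 46.9, 85.5 and 149 (0.60 ± 0.39, adjusted p = 0.342, edgeR). The colonic difference ran from 0.29 without negative library 1 to 1.12 without negative library 3 of the colon. The populations overlapped in every region. The ileal difference passed the threshold in 5 of the 8 alternative analyses of all libraries (0.89 to 0.97, adjusted p from 0.0148 to 0.0485) and without positive library 1 of the ileum (1.10), negative library 3 of the ileum (1.2) or negative library 3 of the jejunum (0.89, edgeR). *Ldha*, like *Pkm*, has processed copies in the genome, and reads that fit several places were not counted, which can lower its counts.

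The lactate carriers ran in opposite directions in the jejunum. *Slc16a3* (ENSMUSG00000025161, chromosome 11, 120948480 to 120960868) encodes MCT4, the carrier known for lactate export from glycolytic cells, and was at 13.7, 15.8 and 17.7 CPM in Venus-positive jejunum and 1.29, 1.45 and 2.38 in Venus-negative jejunum. Ileal libraries held 1.72, 11.6 and 13.2 CPM against 0.0824, 0.6696 and 0.831. The populations were separate in both regions, by 9.17-fold in the jejunum (3.2 ± 0.74, adjusted p = 0.000819) and 16.7-fold in the ileum (4.06 ± 0.79, adjusted p = 0.000144, edgeR), although 1 ileal Venus-positive library was well below the other 2. The Venus-negative ileal values rest on 2, 19 and 15 counts, the lowest under the floor of 3 counts, and the ileal difference ran from 3.55 without negative library 1 to 4.55 without positive library 1 of the ileum. In the duodenum it was at 2.87, 4.35 and 5.397 against 1.04, 1.19 and 2.95 CPM, with overlap (1.28 ± 0.72, adjusted p = 0.226, edgeR). This difference ran from 1.01 without negative library 2 to 1.90 without negative library 3 of the duodenum. The colon had next to none: 2, 7 and 17 counts in the Venus-positive libraries and 0, 0 and 6 in the Venus-negative ones. These are too few for a fold change between the colonic populations, and over all libraries 20 of 24 had more than 3 counts. The study itself used *Slc16a3* as an enterocyte marker and *Slc2a1* as a colonocyte marker.

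*Slc16a1* (ENSMUSG00000032902, chromosome 3, 104638668 to 104658462) encodes MCT1. Its Venus-positive duodenal libraries, at 10.5, 24.5 and 34.2 CPM, were below the Venus-negative ones at 44.4, 46.5 and 52.5, and the gene was called lower (-1.05 ± 0.34, adjusted p = 0.0304, edgeR). In the jejunum it was at 18.0, 21.8 and 28.5 against 28.1, 34.96 and 60.99 CPM, with overlap at the edge, and was also called lower (-0.86 ± 0.34, adjusted p = 0.0373, edgeR). Ileal libraries overlapped, at 21.01, 21.7 and 30.9 and 25.4, 28.2 and 38.6 CPM (-0.32 ± 0.33, adjusted p = 0.467). This difference ran from -0.53 without positive library 3 to -0.13 without negative library 3 of the ileum. In the colon the Venus-positive libraries held 74.9, 77.1 and 104 CPM and the Venus-negative ones 45.99, 47.6 and 75.2 (0.60 ± 0.33, adjusted p = 0.253, edgeR). The duodenal call did not hold with library size alone (-0.59, adjusted p = 0.33), nor without any of positive libraries 1 and 2 or negative libraries 1, 2 and 3 of the duodenum, negative library 1 of the jejunum, or library 2 of either colonic population (-1.45 to -0.71 over all omissions). The jejunal call did not hold in 5 of the 8 alternative analyses of all libraries (-0.82 to -0.60), nor without any of positive libraries 1 and 2 or negative libraries 1 and 3 of the jejunum or library 2 of either colonic population (-1.08 to -0.47).

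**Figure D2:**
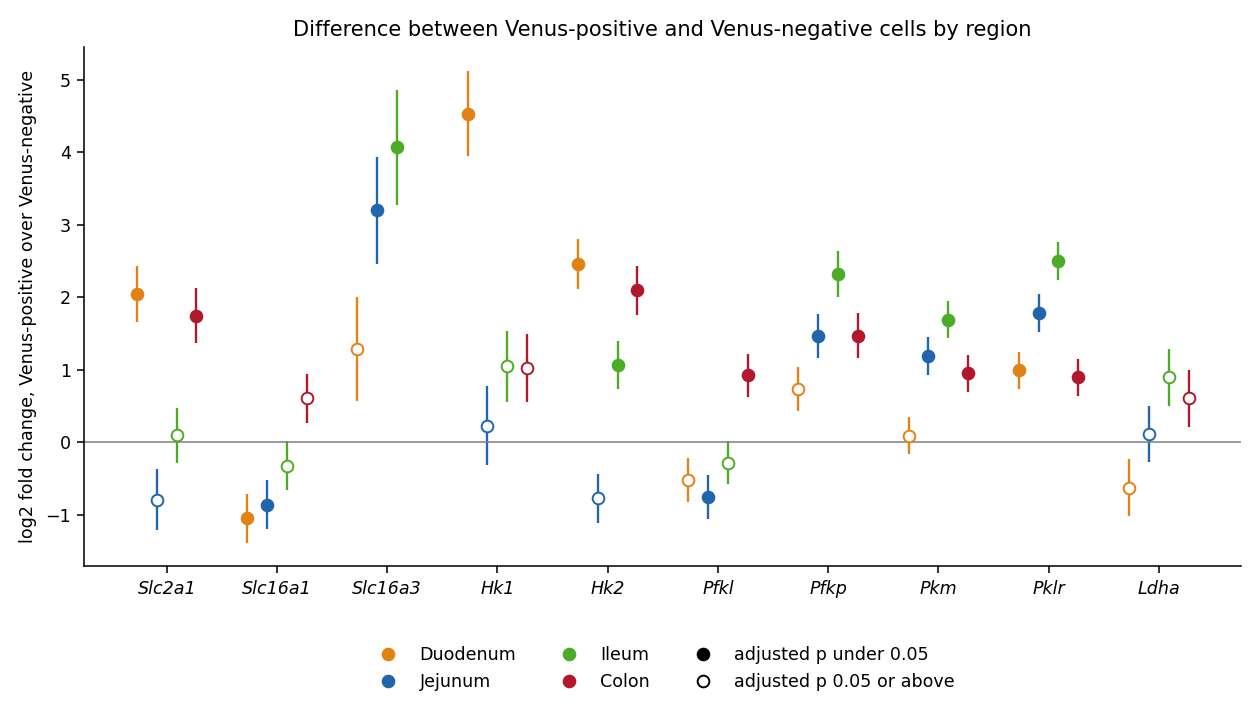
Log2 fold change of Venus-positive over Venus-negative cells for each gene (points) with its standard error (lines) by region, from the edgeR fit of 24 libraries; filled points have an adjusted p under 0.05. *Slc16a3* in the colon is left out because its counts were too low. Points for *Pklr* are filled and above 0 in all 4 regions, and the duodenal point for *Hk1* lies at 4.53.

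Whether the difference between Venus-positive and Venus-negative cells changed along the gut was tested directly, with the interaction of region and sort. It was called for 7 of the 10 members, where 17.5% of all tested genes were called: *Hk2* (adjusted p = 9.22e-05), *Hk1* (0.000991), *Slc2a1* (0.00115), *Pklr* (0.00445), *Pkm* (0.0126), *Pfkl* (0.0169) and *Slc16a1* (0.0427, edgeR). *Pfkp* (adjusted p = 0.0544), *Ldha* (0.167) and *Slc16a3* (0.177, edgeR) were not called. Scaling by library size alone left 4 of the 10 called. Between the duodenum and the jejunum the difference was called for 4 members (14.6% of all genes). The glucose transporter and both hexokinases had more in the duodenum: *Hk1* by 4.3 ± 0.79 on the log2 scale (adjusted p = 0.000609), *Hk2* by 3.23 ± 0.48 (6.67e-05) and *Slc2a1* by 2.84 ± 0.57 (0.00127, edgeR). *Pkm* was the reverse (-1.1 ± 0.36, adjusted p = 0.0376), a call lost with library size alone (-0.95, adjusted p = 0.186), without the low-count filter (-1.13, adjusted p = 0.119, edgeR) and on 8 of the 24 omissions.

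Between the duodenum and the ileum 5 members were called (10.5% of all genes), 2 with more in the duodenum and 3 with more in the ileum. *Hk1* (3.48 ± 0.75, adjusted p = 0.00242) and *Slc2a1* (1.95 ± 0.54, 0.018, edgeR) had the larger difference in the duodenum. The call for *Slc2a1* was lost on 4 of the 24 omissions (1.67 to 2.32). *Pkm* (-1.6 ± 0.36, adjusted p = 0.00361), *Pfkp* (-1.58 ± 0.43, 0.0153) and *Pklr* (-1.51 ± 0.36, 0.00586, edgeR) had the larger difference in the ileum. The latter 3 missed the threshold with library size alone (-1.08, -1.08 and -1.01 for *Pfkp*, *Pkm* and *Pklr*). Between the duodenum and the colon 3 were called (3.62% of all genes): *Hk1* (3.51 ± 0.74, adjusted p = 0.00373), *Slc16a1* (-1.65 ± 0.47, 0.0449) and *Pfkl* (-1.45 ± 0.42, 0.0489, edgeR). *Hk1* kept its call between the duodenum and each other region without any single library, whereas the last 2 were at the edge of the threshold and were lost on omitting 13 and 18 of the 24 libraries. All 3 comparisons share the duodenal libraries.

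Within each sorted population, most members differed along the gut. Levels differed among the 4 regions for 9 of 10 members in Venus-positive cells (43.3% of all genes) and for 8 of 10 in Venus-negative cells (12.3% of all genes). *Ldha* was the member not called in Venus-positive cells (adjusted p = 0.174), and *Slc16a1* (0.303) and *Hk2* (0.396, edgeR) were those not called in Venus-negative cells. Against the mean of the 3 small intestinal regions, Venus-positive colon had 5 members higher and 3 lower (15.9% and 10.3% of all genes), and Venus-negative colon had 3 higher and 4 lower (5.74% and 6.53%). In Venus-positive cells the colon was higher for *Hk1* (3.27 ± 0.35, adjusted p = 1.62e-08), *Slc2a1* (3.09 ± 0.28, 5.3e-10), *Pfkl* (2.51 ± 0.22, 3.02e-10), *Slc16a1* (1.87 ± 0.25, 1.01e-06) and *Hk2* (1.41 ± 0.25, 6.57e-05, edgeR). It was lower for *Pklr* (-1.85 ± 0.23, adjusted p = 3.15e-07), *Pfkp* (-1.27 ± 0.27, 0.000566) and *Slc16a3* (-3.74 ± 0.74, 0.000282, edgeR). The last value rests on 2, 7 and 17 colonic counts, the lowest under the floor of 3 counts, so its size is uncertain. It ran from -4.64 without positive library 2 to -3.24 without positive library 3 of the colon. Among the members for phosphofructokinase and for the lactate carriers, then, 1 gene was higher in the colon and the other lower, whereas *Hk1* and *Hk2* were both higher there.

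The same comparison in Venus-negative cells called part of the set. *Hk1* (4.19 ± 0.37, adjusted p = 7.43e-10), *Slc2a1* (1.8 ± 0.29, 3.3e-05) and *Pfkl* (1.06 ± 0.23, 0.00136, edgeR) were higher in Venus-negative colon. *Pfkp* (-1.23 ± 0.27, adjusted p = 0.0016), *Pklr* (-0.99 ± 0.22, 0.00216) and *Ldha* (-1.11 ± 0.34, 0.0275, edgeR) were lower, as was *Slc16a3*, which is near 0 in those libraries and is given no fold change. *Slc16a1* (0.52 ± 0.26, adjusted p = 0.229) and *Hk2* (0.23 ± 0.27, 0.666, edgeR) were not called there. *Pkm* differed in neither population beyond the spread between libraries (-0.04 ± 0.21 in Venus-positive cells, adjusted p = 0.922, edgeR). Without negative library 2 of the colon, *Pfkp* (-0.93, adjusted p = 0.0543), *Pklr* (-0.71, adjusted p = 0.0812) and *Ldha* (-0.90, adjusted p = 0.185, edgeR) missed the threshold, and *Ldha* also missed it without negative library 1 of the colon, positive library 2 of the colon or positive library 2 of the jejunum, and with RLE factors, 10 counts in every library or protein-coding nuclear genes (adjusted p = 0.0507, 0.0675 and 0.0578, edgeR). The call for *Slc16a3* (adjusted p = 0.0434) was lost on 9 of the 24 omissions, with adjusted p = 0.24 without negative library 2 of the colon, and with RLE factors or protein-coding nuclear genes (adjusted p = 0.0588 and 0.0577, edgeR). These comparisons of colon with small intestine in the Venus-positive and the Venus-negative population use separate libraries, and the difference between them was not tested as such.

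**Figure D3:**
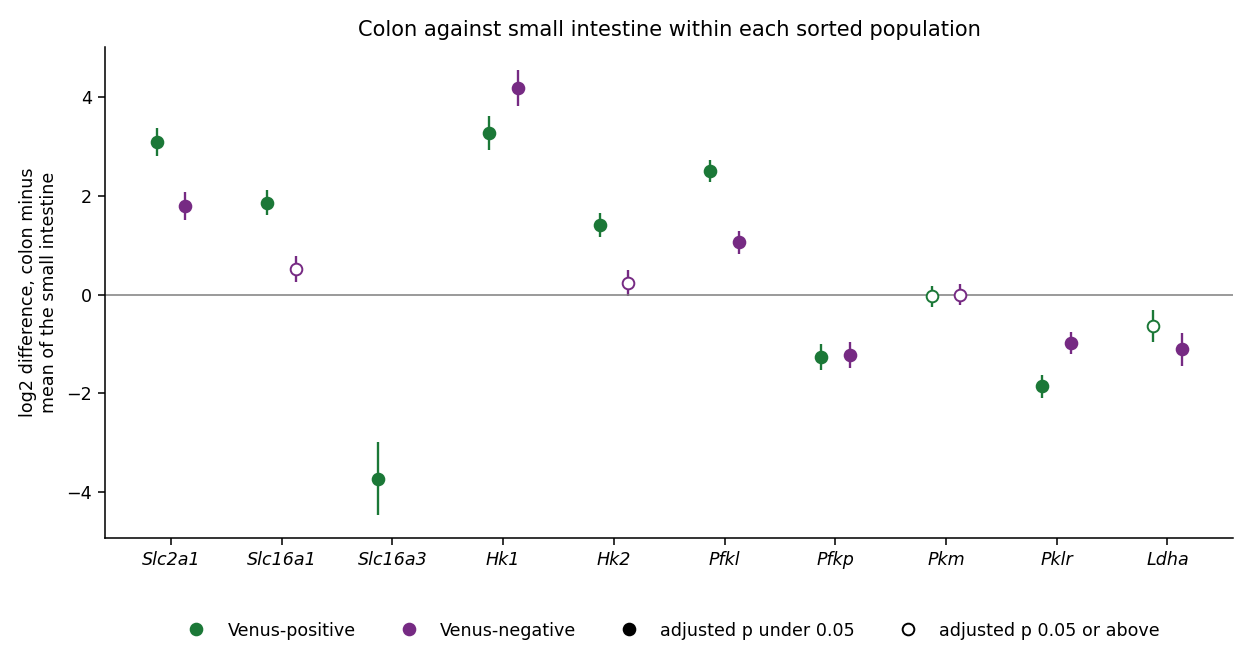
Log2 difference of the colon from the mean of duodenum, jejunum and ileum for each gene (points) with its standard error (lines), in Venus-positive (green) and Venus-negative (purple) cells; filled points have an adjusted p under 0.05 (edgeR). *Slc16a3* in Venus-negative cells is left out because its counts were near 0. *Slc2a1*, *Hk1* and *Pfkl* lie above 0 and *Pfkp* and *Pklr* below 0 in both populations, and *Pkm* lies at -0.04 in Venus-positive cells.

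The balance of paired genes was compared as a log2 ratio per kilobase of exons in each library, with 2 counts added to each gene, by an exact permutation test of sort labels within regions (160000 arrangements, smallest possible p 1.25e-05). The length used is that of all annotated exons of a gene, so that the ratio itself depends on the annotation and the differences between groups do not. *Pklr* over *Pkm* was 1.21, 1.29 and 1.32 in Venus-positive ileum and 0.23, 0.37 and 0.81 in Venus-negative ileum. In the duodenum it was 0.08, 0.26 and 0.68 against -0.74, -0.58 and -0.45, and in the jejunum 0.44, 0.67 and 0.79 against -0.10, 0.01 and 0.24. In these 3 regions the ratio was higher in every Venus-positive library, while in the colon it was -1.32, -1.0 and -0.88 against -1.25, -1.18 and -0.66, mixed and on the side of *Pkm*. Over the 4 regions the Venus-positive libraries had a mean ratio 0.57 higher on the log2 scale (exact p = 0.000412, two-sided, adjusted p = 0.000688 over the 5 ratios compared).

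*Pfkp* over *Pfkl* shifted further. It was 3.36, 3.37 and 3.59 in Venus-positive and 0.63, 1.28 and 1.47 in Venus-negative jejunum, and 3.14, 3.31 and 3.38 against 0.44, 0.59 and 0.92 in ileum. In the colon it was -1.16, -1.1 and -0.52 against -1.97, -1.42 and -1.03, on the side of *Pfkl* in both populations. The mean over regions was 1.69 higher in Venus-positive libraries (exact p = 3.75e-05, adjusted p = 0.000188 over the 5 ratios). *Slc16a3* over *Slc16a1* was 2.76 higher (exact p = 0.000137, adjusted p = 0.000344), and where *Slc16a3* is near 0, as in the colon, this ratio rests on the added counts. The difference was 2.53 in duodenum, 3.95 in jejunum and 4.08 in ileum, but 0.49 with overlap in colon. With 0.5 added counts the mean difference was 3.14. *Hk2* over *Hk1* differed by -0.47 in the mean (exact p = 0.193, adjusted p = 0.241), and the duodenum, at 2.11, 2.52 and 3.05 against 3.79, 4.8 and 5.12, and the colon, at 0.90, 1.05 and 1.46 against 0.03, 0.03 and 0.29, went opposite ways, each without overlap. The jejunum ran with the duodenum, at 2.42 to 3.57 against 3.83 to 4.13, also without overlap. Ileal libraries overlapped, with a difference of -0.06. *Ldhb*, the lactate dehydrogenase subunit of heart, over *Ldha* differed by -0.46 (exact p = 0.282, adjusted p = 0.282). It ran from -0.69 to -0.23 on leaving out negative library 3 or 2 of the jejunum and was -0.69 with 0.5 added counts. It rests on the added counts, since *Ldhb* was at or near 0 in the small intestine, with a mean of 1.89 ± 0.989 CPM (SD, n = 3) in Venus-positive and 4.17 ± 3.15 in Venus-negative colon. Within 1 region, 3 against 3 libraries cannot give an exact p below 0.1. The permutations treat libraries as independent, although regions and populations likely share mice.

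**Figure D4:**
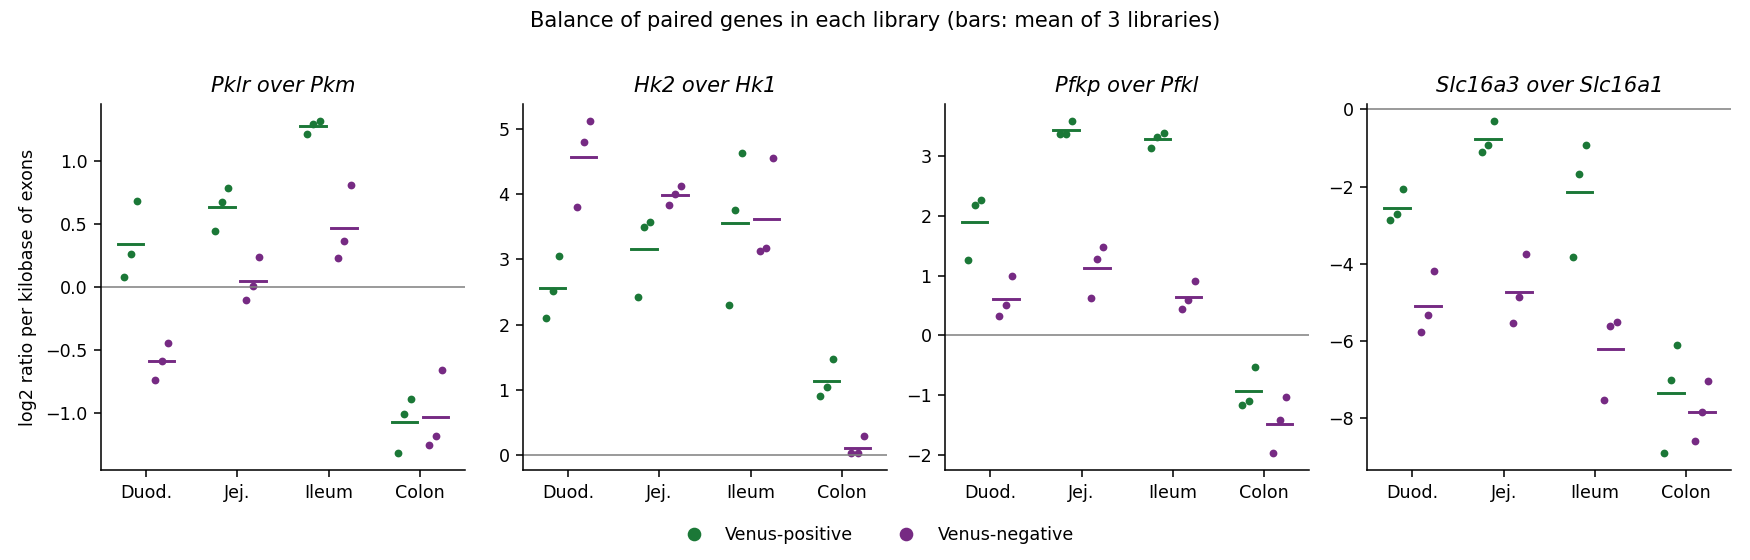
Log2 ratio per kilobase of exons between paired genes in each library, by region, in Venus-positive (green) and Venus-negative (purple) cells. Bars are the mean of 3 libraries, and the vertical axes differ between panels. The grey line marks equal levels per kilobase of annotated exons, so the side on which a ratio falls depends on those lengths. *Pklr* over *Pkm* and *Pfkp* over *Pfkl* are higher in Venus-positive libraries of the small intestine and fall below 0 in the colon.

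The rest of the pathway was described by lists of further glycolytic genes, all with the same edgeR fit. Their counts stand beside all-gene shares of 8.88%, 18.3%, 17.9% and 9.31% higher and 8.08%, 25.6%, 20.6% and 3.8% lower in duodenum, jejunum, ileum and colon. Of 16 other glycolytic enzymes 13 were tested, and 0, 4, 6 and 3 were higher and 1, 0, 1 and 0 lower in Venus-positive duodenum, jejunum, ileum and colon. *Hkdc1*, which encodes a further hexokinase, was at 154 ± 15.8 CPM (SD, n = 3) in Venus-positive and 46.5 ± 13.9 in Venus-negative jejunum, with log2 fold changes of 1.73 (adjusted p = 0.000169), 2.47 in ileum (3.29e-06), 3.13 in colon (2.83e-06) and -0.47 in duodenum (0.368, edgeR). *Pfkm*, the muscle phosphofructokinase, was low everywhere, and was lower in Venus-positive duodenum (-2.57, adjusted p = 0.0305) and ileum (-2.16, 0.0318, edgeR). *Hk3*, which encodes a hexokinase, was too low to be tested. *Gapdh* and *Pgk1*, abundant in most cells and with many processed copies, had group means of at most 7.32 and 2.41 CPM in this table.

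The enzymes that make and remove the allosteric activator of phosphofructokinase had 3 of 5 genes higher in Venus-positive jejunum and in ileum, 1 of 5 in colon and 0 in duodenum, and 0 lower in any. *Pfkfb4* had log2 fold changes of 1.89 in jejunum (adjusted p = 0.00121), 2.77 in ileum (3.04e-05) and 2.48 in colon (0.00116, edgeR). *Pfkfb3* rose in jejunum (2.67, adjusted p = 0.0022) and ileum (2.57, 0.00339, edgeR), as did *Pfkfb2* (1.47, adjusted p = 0.00951, and 1.47, 0.0108, edgeR). Genes of the opposite pathway, gluconeogenesis, were also higher in part: 7 of 8 were tested, and 1, 3, 4 and 1 were higher and 1, 2, 2 and 1 lower in duodenum, jejunum, ileum and colon. *Pck1*, the cytosolic enzyme that turns oxaloacetate towards glucose, was higher in all 4 regions, by 2.44 in duodenum (adjusted p = 0.000137), 3.88 in jejunum (1.33e-07), 2.91 in ileum (6.99e-06) and 1.59 in colon (0.00769, edgeR). Its mitochondrial counterpart *Pck2* was lower in jejunum (-2.98, adjusted p = 3.84e-06) and ileum (-2.5, 3.13e-05, edgeR). *G6pc*, which frees glucose from its phosphate, was higher in jejunum (2.48, adjusted p = 0.000342) and ileum (4.66, 8.35e-07, edgeR). The ileal value rests on at most 12 counts in a Venus-negative library (mean 0.352 CPM), so its size is uncertain.

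Of 21 genes that handle pyruvate and lactate 19 were tested, and 0, 4, 1 and 2 were higher and 2, 7, 3 and 0 lower in duodenum, jejunum, ileum and colon, in the ileum a smaller share than among all genes in both directions. *Mpc2*, a subunit of the carrier that takes pyruvate into mitochondria, was lower in duodenum (-1.54, adjusted p = 0.000721), jejunum (-1.87, 1.44e-05) and ileum (-0.86, 0.0232) and at 0.05 in colon (0.945, edgeR). *Pdk2* and *Pdk4*, kinases that switch off pyruvate dehydrogenase, were higher in jejunum (2.07, adjusted p = 1.05e-06, and 2.48, 0.0033) and colon (1.41, 0.000946, and 5.48, 3.7e-05, edgeR), and *Pdk2* also in ileum (1.76, adjusted p = 1.06e-05, edgeR). In contrast, *Pdk1*, a kinase of the same family, was lower in jejunum (-1.46, adjusted p = 0.00324) and ileum (-1.49, 0.00322, edgeR). *Pdk3* was called in no region. The colonic value of *Pdk4* rests on at most 7 counts in a Venus-negative library, near the floor of 3 counts, so its size is uncertain. Among the sugar transporters 5 of 7 were tested, and 4 of the 5 were higher in jejunum and in ileum and 0 in duodenum and colon, with none lower. *Slc5a1*, the sodium-coupled glucose carrier of the brush border, was at 1060.4 ± 255 CPM in Venus-positive and 219.9 ± 69.02 in Venus-negative jejunum (2.27, adjusted p = 3.11e-06, edgeR). *Slc2a2*, the glucose carrier of the basolateral side, rose in jejunum (2.98, adjusted p = 8.5e-07) and ileum (4.41, 5.26e-08), and the fructose carrier *Slc2a5* in the same regions (2.23, 0.0012, and 3.84, 8.56e-06, edgeR). *Slc2a1* was called where these carriers were not, in duodenum and colon.

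Genes of the response to hypoxia, through which *Hk2*, *Ldha*, *Slc2a1* and *Slc16a3* are known to be induced, had 3, 7, 8 and 5 of 16 higher and 0, 1, 1 and 0 lower in duodenum, jejunum, ileum and colon. *Epas1*, which encodes an oxygen-regulated transcription factor, was higher in all 4 (1.33, 3.29, 2.09 and 1.38, adjusted p = 0.0183, 7.94e-07, 0.000123 and 0.0167, edgeR). *Egln3*, an oxygen sensor, rose in jejunum (2.98, adjusted p = 0.000133) and ileum (3.69, 2.02e-05, edgeR). The gene called lower in these regions was *Car9* (-3.58, adjusted p = 0.000112, in jejunum and -1.70, 0.0336, in ileum, edgeR). *Adm* was higher in ileum and colon (adjusted p = 0.00225 and 0.0124, edgeR). Its Venus-negative libraries there held at most 9 and 1 counts, so no fold change is given. Of 9 transcription factors and sensors of glucose, 2, 2, 5 and 4 were higher and 1, 1, 2 and 1 lower. *Mlxipl*, whose product is known to bind carbohydrate response elements, was at 68.1 ± 29.9 against 58.4 ± 20.5 CPM in jejunum (0.22, adjusted p = 0.643) and was lower in Venus-positive duodenum (-1.1, 0.0368), with 0.05 in ileum (0.927) and -0.87 in colon (0.126, edgeR). *Txnip*, a glucose-induced gene of the same list, was higher in duodenum (0.78, adjusted p = 0.0354), ileum (1.5, 3.9e-05) and colon (1.36, 0.000593, edgeR). *Arrdc4* was higher in ileum (1.83, adjusted p = 0.000165) and colon (1.25, 0.0177, edgeR). In the jejunum neither *Txnip* (0.44, adjusted p = 0.168) nor *Arrdc4* (-0.02, 0.982, edgeR) was called. *Arrdc4* was also not called in duodenum (0.54, adjusted p = 0.307, edgeR). *Klf4*, a factor of differentiated epithelium, was higher in all 4 regions (3.11, 3.33, 3.45 and 2.01), and *Hnf4a* in jejunum (1.46), ileum (1.42) and colon (1.25), at adjusted p of at most 0.00342 (edgeR). *Myc*, which is known to drive glycolytic genes in dividing cells, was lower in jejunum (-3.98, adjusted p = 1.88e-05), ileum (-4.8, 2.5e-06) and colon (-1.87, 0.0285, edgeR).

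The cell types in the sorted populations differed in the same comparisons. Enterocyte markers were higher in Venus-positive cells for 2, 12, 12 and 6 of 12 genes in duodenum, jejunum, ileum and colon, and lower for 2 in duodenum, and summed to 26119 to 31166 CPM in Venus-positive and 2608 to 3409.7 in Venus-negative jejunum. Goblet cell markers were higher for 8 of 8 in every region, with sums of 52957 to 60409 against 309.8 to 433 CPM in duodenum and 4065 to 4974 against 925 to 1847 in colon. In jejunum these sums were 1906 to 4903 against 295 to 454 CPM and in ileum 4383 to 10082 against 306 to 388. Paneth cell markers were higher for 7 of 7 in each small intestinal region and for 0 in colon, with 22475 to 54016 against 197 to 764 CPM in duodenum, 1567 to 16297 against 294 to 803 in jejunum and 4141 to 9769 against 236 to 436 in ileum. Enterocyte markers summed to 9229 to 17737 against 694 to 1154 CPM in ileum and to 2251 to 4813 against 1837 to 2645 in duodenum. Colonocyte markers were higher for 1, 3, 5 and 6 of 7 and lower for 2 in duodenum and 1 in jejunum, and summed to 2049.6 to 2191 CPM in Venus-positive and 338 to 492 in Venus-negative colon. Proliferation and stem cell markers were lower for 4, 9, 9 and 6 of 10 (in jejunum 83.9 to 329 against 1618 to 2546 CPM, with *Ascl2* at 0 in the Venus-positive libraries). Enteroendocrine markers were lower for 8, 9, 7 and 5 of 9 and tuft cell markers for 3, 5, 5 and 0 of 5. The part of these cell types in the members' differences was not tested.

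Cells from outside the epithelium were rare in the libraries. Immune markers summed to 11.02 to 30.8 CPM in Venus-positive duodenum, with *Cd79a* at 0, and to 0.772 to 12.8 in the other groups; 1 of 7 tested was higher in duodenum and in ileum, and 2 were lower in jejunum and 1 in ileum. The higher one was *Lyz2*, which made up most of the duodenal sum (mean 16.3 CPM). Endothelial and stromal markers summed to at most 14.02 CPM in any library, and 3 of 4 tested were lower in Venus-positive ileum. Red cell markers summed to at most 1.903 CPM, and none was high enough to be tested.

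Similarity over the 24 libraries gives a further description, as Pearson's r of log2 CPM, in which libraries of 1 group share region and sort. Among the members, *Pfkp* and *Pklr* were the most alike (r = 0.945), followed by *Slc16a3* with *Pfkp* (0.886) and with *Pklr* (0.881), *Slc16a1* with *Pfkl* (0.810) and *Slc2a1* with *Hk1* (0.798), and *Hk1* and *Ldha* were the least alike (-0.609). *Pkm* was closest to *Pfkp* (0.702) and *Pklr* (0.687), *Ldha* to *Slc16a3* (0.718) and *Hk2* to *Hk1* (0.757), while *Slc16a1* was not close to *Hk1* (0.237) or *Hk2* (0.0205). Over the 15043 other tested genes, *Pklr* was closest to *Pls1* (0.971) and *Vil1* (0.971), which encode actin-bundling proteins of the brush border, and to *Prr15* (0.97). *Pfkp* was closest to *Cdc42ep2* (0.962), *Slc16a3* to *Parp14* (0.939), *Pkm* to *Acad11* (0.9) and *Ldha* to *Vmp1* (0.892). *Pfkl* was closest to *Plet1* (0.956), *Slc2a1* to *Abcc3* (0.928), *Slc16a1* to *Prdx6* (0.908), *Hk1* to *Creb3l1* (0.936), a transcription factor of secretory cells, and *Hk2* to *Muc3a* (0.932), a membrane-bound mucin.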

How the data were processed

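RNA of 24 libraries from sorted epithelial cells was sequenced as single-end reads with a kit that marks strand. The authors aligned the reads to GRCm38 with STAR 2.5.1, counted uniquely mapped reads per gene and deposited raw counts for 53465 Ensembl genes. The annotation and the strand setting of the counting are not given in the sources used here. Symbols, lengths and overlaps came from GENCODE M21, which held 53360 of the genes, and promoters from RefSeq on GRCm38.p6. Low counts were filtered with edgeR's filterByExpr (minimum count 10, minimum total 15), which left 15044 genes. Counts were scaled by TMM and fitted with edgeR 4.0.16 (limma 3.58.1, R 4.3.3) in 1 quasi-likelihood model of 8 groups, which was also tested on simulated data at a dispersion near that of these libraries. There edgeR made few false calls but missed most true ones, above all in the interaction terms, and DESeq2 made more false calls than its threshold allows. Contrasts were Venus-positive against Venus-negative cells within each region, the differences of these between regions, and regions within each population, at a Benjamini-Hochberg adjusted p of 0.05.

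Alternatives were DESeq2 1.42.0 and its size factors in edgeR (RLE), scaling by library size only, dropping the low-count filter or asking for 10 counts in all libraries, fitting nuclear protein-coding genes only, adding the i5 index as a covariate, fitting each region separately, and omitting each library in turn. Ratios of paired genes used 2 added counts, with 0.5 as the alternative. Library numbers follow accession order, and no label ties a number to a mouse. No 2 libraries of a group agreed within sampling noise (chi-square per degree of freedom 26.5 to 177 over 24 pairs). Floors of 3 counts cover counting error only.

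The 10 members and the lists of other genes (7 of pathway genes, 10 of cell type markers) were chosen with earlier results of these data known. From each pathway list the text names the 3 called genes with the largest mean absolute log2 fold change over the 4 regions, and *Hk3* and *Ldhb*; some genes this rule names are not reported here. *Guca2a*, *Gapdh*, *Pgk1*, *Mlxipl*, *Txnip*, *Arrdc4*, *Car9*, *Pdk1*, *Pdk3* and *Lyz2* were named in addition, after values were seen. For each member the 3 genes with the highest Pearson's r of log2 CPM (prior count 2) were found.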

Additional observations from a re-analysis of the deposited data

Results flagged for a closer look

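The difference between Venus-positive and Venus-negative cells itself differed between regions in 12 of the tests run for each of the 10 members against the 3 regions other than the duodenum (edgeR interaction terms, each given as the duodenal minus the other log2 fold change). Over all tested genes 14.6%, 10.5% and 3.62% were called against jejunum, ileum and colon. The joint test over regions called 7 members and not *Pfkp* (adjusted p = 0.0544, edgeR). Against the jejunum these were *Hk1* (4.30), *Hk2* (3.23), *Slc2a1* (2.84) and *Pkm* (-1.10). Against the ileum they were *Hk1* (3.48), *Slc2a1* (1.95), *Pkm* (-1.60), *Pfkp* (-1.58) and *Pklr* (-1.51). Against the colon they were *Hk1* (3.51), *Slc16a1* (-1.65) and *Pfkl* (-1.45). Leaving out 1 library at a time kept *Hk1* between 3.80 and 5.07 against the jejunum, between 2.95 and 4.25 against the ileum and between 3.09 and 4.26 against the colon, with the call each time. The call for *Pkm* against the jejunum was lost on 8 of the 24 omissions (-1.48 to -0.95), for *Slc2a1* against the ileum on 4 (1.67 to 2.32), for *Slc16a1* against the colon on 13 (-2.06 to -1.32) and for *Pfkl* against the colon on 18 (-1.84 to -1.21). The share of mitochondrial reads, the level of *Guca2a* and the cell type markers given with the results also differed between these populations. Their part was not tested.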

How the results depend on the processing

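Of the 22 called differences between Venus-positive and Venus-negative cells, 16 kept direction and call under all alternatives that kept every library of their comparison, and over these alternatives 152 of 171 values kept the call, 19 lost it and 0 changed direction. Scaling by library size alone moved the median log2 fold change of all genes from -0.16 to 0.27 in duodenum, from -0.28 to 0.02 in jejunum, from -0.27 to -0.31 in ileum and from 0 to -0.07 in colon. With it, 3 members were called in the colon, 4 in the joint interaction, 3 for duodenum against ileum and 1 for duodenum against colon. With at least 10 counts in every library, a rule that drops *Slc2a1*, *Slc16a3* and *Hk1*, 3 members were called in duodenum, 2 for duodenum against jejunum, 0 for duodenum against colon, 5 among regions in Venus-negative cells, and 5 and 3 for colon against small intestine in Venus-positive and Venus-negative cells. For duodenum against ileum, DESeq2 and no filter on low counts each called 8 members. For duodenum against colon, RLE factors and protein-coding nuclear genes each called 1. The cause of these shifts was not tested, except that the count minimum removes members. Over all tested genes, library size alone turned 1336 higher and 1216 lower calls in duodenum into 2267 and 350, and those in jejunum from 2749 and 3851 into 3339 and 2943.

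Leaving out each library in turn gave 3 to 6 called members in the colon (3 without library 2 of either colonic population), 1 to 4 for duodenum against colon, 5 to 8 among regions in Venus-negative cells and 3 to 7 for colon against small intestine in Venus-negative cells (5 and 3 without negative library 2 of the colon). Differences that were not called and changed sign on an omission were *Pkm* in duodenum (-0.29 to 0.24), *Hk1* in jejunum (-0.35 to 0.73), *Ldha* in jejunum (-0.13 to 0.79) and *Slc2a1* in ileum (-0.28 to 0.36). No paired analysis was run, because the labels name no mouse for a library. In accession order the libraries form 3 sets, each with 1 library of every group. Library 2 had the most gene counts in every group. Whether a set is a mouse is not given, and a fit blocked by set was not run. Depth limited *Slc16a3* in the colon and in Venus-negative ileum and *Hk1* in Venus-negative duodenum, at 0 to 19 counts.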
